A study of Mus musculus with 9 samples.

Results

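The FGF receptors Fgfr1, Fgfr2 and Fgfr3 and 7 genes of the FGF-ERK feedback loop (Spry1, Spry2, Spry4, Etv1, Etv4, Etv5 and Dusp6) were followed in the cortex of single E12.5 mouse embryos. These 10 genes were matched by symbol to the Ensembl identifiers of a count table of 57010 genes, and all 10 were found. Bulk RNA sequencing covered 3 control embryos (Ctrl, whose genotype label reads WT), 3 Cnot3 cKO embryos and 3 Cnot3;Trp53 dcKO embryos. In cKO a floxed Cnot3, a subunit of the CCR4-NOT deadenylase complex, was deleted with Emx1-Cre, and in dcKO a floxed Trp53, the gene of p53, was deleted as well. Emx1-Cre acts in radial glia of the dorsal telencephalon and their progeny, so vessels, meninges and blood in the dissected tissue keep both genes. The floxed alleles and Cre status of the Ctrl embryos are not given in the sources used here.

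FGFs bind receptor tyrosine kinases, and in the early cortex this pathway maintains progenitors and patterns the tissue from front to back. An activated receptor recruits Frs2 and Grb2, which switch on Ras, Raf, MEK and ERK. ERK signalling then induces the transcription factors Etv4 and Etv5 and the inhibitors Sprouty and Dusp6, a phosphatase of ERK, so the RNAs of these genes are widely used as readouts of the pathway.

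Library size was 21193798 to 45073349 reads per embryo. Cnot3 was at 98.2 to 117.3 CPM (reads of a gene relative to the reads of its library, scaled with TMM factors) in Ctrl and 14.6 to 17.3 in cKO. In dcKO replicates 1, 2 and 3 Cnot3 was at 7.33, 48.2 and 19.0 CPM and Trp53 at 15.1, 110 and 20.6 CPM, against 215 to 254 CPM of Trp53 in Ctrl. Loss of both targeted genes was thus smallest in dcKO replicate 2, which was also the only embryo with reads of Gsx2, a marker of the subpallium (2.45 CPM). Over all genes, edgeR called 0 in dcKO against Ctrl in the fit of 9 embryos, 980 higher and 350 lower without dcKO replicate 2, and 1157 higher and 2088 lower without dcKO replicate 3. Values without these embryos are therefore given below for the members whose call they change. Of the dorsal cortex markers, Emx1 was at 43.8 to 119.9 CPM in Ctrl, 20.4 to 23.7 in cKO and 7.94 to 80.9 in dcKO, and Pax6 was at 133.7 to 152.9, 118.8 to 133.4 and 133.8 to 157.3 CPM. Emx1 is also the gene of the Cre driver, and the Cre status of Ctrl is not given. All 5 dorsal cortex markers summed to 967 to 1544, 732 to 789 and 929 to 1218 CPM. In cKO 4 of 5 had a log2 fold change below 0 and DESeq2 called 2 lower. In dcKO 2 of 5 were below 0 and DESeq2 called 0. Since these are bulk samples, fewer cells of a type and less RNA per cell cannot be told apart.

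In Ctrl the receptors were the most abundant members. Per kb of annotated exon, Fgfr3 stood at 29.5 ± 4.36 CPM (SD, n = 3), Fgfr1 at 17.2 ± 2.57 and Fgfr2 at 11.4 ± 1.10. The feedback genes followed with Etv5 at 9.92 ± 1.25, Dusp6 at 5.56 ± 0.975, Spry1 at 4.41 ± 0.532 and Spry2 at 2.00 ± 0.150 CPM per kb. Etv1 at 1.14 ± 0.321, Spry4 at 0.856 ± 0.155 and Etv4 at 0.614 ± 0.166 CPM per kb were lowest. Among neighbours in this order, the ranges of the Ctrl embryos overlapped for Fgfr2 and Etv5, for Dusp6 and Spry1, for Etv1 and Spry4, and for Spry4 and Etv4. With the longest coding sequence as the length, ranks 1 to 6 and 10 held the same genes, and Spry2 moved from rank 7 to rank 9.

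Of the 10 members, 9 passed the filter of more than 10 reads in every embryo, and only Etv4, with 1 read in dcKO replicate 2, did not. A call needed an adjusted p under 0.05 together with a log2 fold change beyond 1 in either direction. In cKO against Ctrl, edgeR's quasi-likelihood test called 0 of the 9 tested members, beside 0.0146% of the 13680 genes tested. In dcKO against Ctrl edgeR called 0 of 9, beside 0% of all genes, and in dcKO against cKO 0 of 9, beside 0.0146%. At an unadjusted p under 0.05 edgeR had 2 members in cKO, 4 in dcKO and 2 in dcKO against cKO, where all genes gave 27.0%, 29.2% and 4.42%.

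DESeq2, the study's tool, called 3 members. In cKO it called 1 of 9 lower, Fgfr3, beside 3.87% of all genes called lower and 4.94% called higher. In dcKO it called 2 of 9 lower, Spry1 and Etv5, beside 3.79% lower and 4.66% higher. Between the mutants it called 1 of 9 lower in dcKO than in cKO, Etv5, beside 0.351% of genes called lower and 0.0292% called higher. No member was called higher in any comparison by either tool. The median edgeR log2 fold change of the 9 tested members was -0.24 in cKO and -0.68 in dcKO, beside medians over all genes of 0.01 and 0.11, and -0.36 in dcKO against cKO, beside 0.07.

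**Figure D1:**
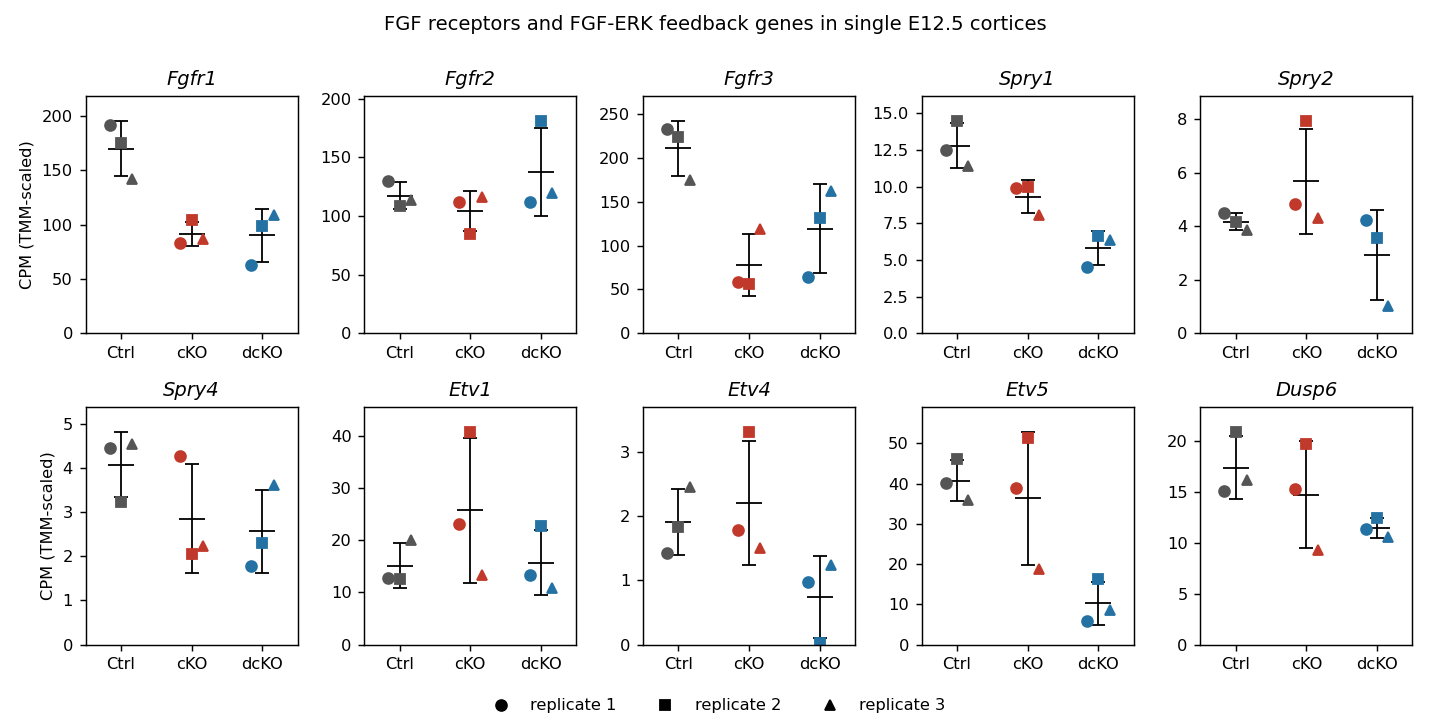
Level of each of the 10 members in each embryo, in CPM scaled with TMM factors (y axes start at 0); symbols mark replicates 1 to 3 of each genotype and bars the mean ± SD (n = 3). Fgfr1 and Fgfr3 lie below Ctrl in all 6 mutant embryos, and Etv5 lies below every Ctrl and cKO embryo in the 3 dcKO embryos (5.86 to 16.2 CPM).

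The upstream sequences of Fgfr3, Spry1 and Etv5, the members called by DESeq2, and of Dusp6 are shown to let a reader compare the promoters of these genes. RefSeq (GRCm38.p6) gave windows before a transcription start for 7 of the 10 members, 10 windows in all, and none for Fgfr1, Spry4 and Etv4. The counts themselves were made on mm39, whose coordinates differ. Capitals mark GGAAG or its reverse complement CTTCC, a core of the sites that ETS factors such as Etv5 bind. Each stretch ends where the first annotated transcript begins, and is written on the strand of the gene.
Fgfr3, chr5:33721474-33721673, plus strand: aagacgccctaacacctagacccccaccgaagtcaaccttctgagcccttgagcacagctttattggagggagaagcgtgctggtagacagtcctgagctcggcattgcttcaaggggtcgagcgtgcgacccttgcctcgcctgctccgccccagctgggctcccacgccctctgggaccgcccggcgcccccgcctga
Spry1, chr3:37639697-37639946, plus strand: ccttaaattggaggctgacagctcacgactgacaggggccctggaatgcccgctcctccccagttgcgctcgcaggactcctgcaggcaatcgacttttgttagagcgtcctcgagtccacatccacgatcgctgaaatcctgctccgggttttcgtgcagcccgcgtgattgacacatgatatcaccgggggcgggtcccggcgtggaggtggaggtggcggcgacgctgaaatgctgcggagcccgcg
Etv5, chr16:22439720-22439820, minus strand: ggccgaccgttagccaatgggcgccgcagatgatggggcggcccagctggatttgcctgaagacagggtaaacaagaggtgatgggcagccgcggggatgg
Dusp6, chr10:99262981-99263230, plus strand: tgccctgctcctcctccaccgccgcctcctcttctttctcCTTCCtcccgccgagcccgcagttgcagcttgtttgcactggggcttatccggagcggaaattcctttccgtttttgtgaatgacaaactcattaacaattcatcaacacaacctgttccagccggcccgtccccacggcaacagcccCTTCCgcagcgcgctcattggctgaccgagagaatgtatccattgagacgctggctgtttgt

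In Dusp6 CTTCC starts 210 and 62 bases before the transcription start. The printed stretches of the other 3 genes hold no match, but they are not all of these genes' windows. Fgfr3 has 1 match 13 bases before its RefSeq start, beyond the printed end, and 3 more in its other window, and the other window of Etv5 has 2. Over the 250 bases before each RefSeq start, GGAAG on either strand was present in 6 of the 10 member windows and in 64.1% of the 32851 windows of all genes. The longer form CCGGAAG was in 0 of the 10 and in 6.91% of all windows. These matches describe letters in a window and say nothing of factor binding.

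Fgfr3, a receptor prominent in cortical progenitors, was at 233, 224 and 175 CPM in Ctrl replicates 1 to 3, at 58.4, 56.2 and 118.7 in cKO and at 63.8, 132 and 163 in dcKO. Every mutant embryo was below every Ctrl embryo, and dcKO replicates 3 and 2 came closest to Ctrl. In cKO Fgfr3 was 2.71-fold lower (log2 fold change -1.44 ± 0.374, SE, edgeR adjusted p = 0.0584). DESeq2 called it lower (adjusted p = 0.00448), and adjusted p over the 31 alternatives ran from 3.1e-07 to 0.212. edgeR also called it when any 1 dcKO embryo was left out (adjusted p = 0.0220, 0.0345 and 0.0106 without replicates 1, 2 and 3), fits in which its calls over all genes went from 2 higher and 0 lower to 518 and 401, 769 and 372, and 722 and 751. The DESeq2 call was lost without Ctrl replicate 1 (adjusted p = 0.0566), Ctrl replicate 2 (0.0506), cKO replicate 1 (0.0628) or cKO replicate 2 (0.0591). In dcKO the log2 fold change was -0.82 ± 0.369 (edgeR adjusted p = 0.171, DESeq2 0.109), and a correction for GC content moved it to -0.26. Without dcKO replicate 3 the value was -1.11, and both edgeR (adjusted p = 0.0285) and DESeq2 (0.00425) called it lower, and without dcKO replicate 1 it was -0.52 (edgeR adjusted p = 0.431, DESeq2 0.384). The adjusted p in dcKO over all 31 alternatives ran from 0.00121 to 0.756. In dcKO Fgfr3 was higher than in cKO by 0.62 ± 0.368 on the log2 scale, which neither edgeR (adjusted p = 0.889) nor DESeq2 (0.924) called. This difference was 1.02 without cKO replicate 3 and 0.33 without dcKO replicate 3. With the number in the embryo code as a block, a fit with 1 residual degree of freedom, it was 1.37. Of the dcKO embryos only replicate 3 informs that value, since replicates 1 and 2 share their number with no other embryo.

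Fgfr1, a receptor with a broad role in telencephalic growth, was at 192, 176 and 142 CPM in Ctrl, 83.0, 104 and 87.3 in cKO and 62.7, 98.9 and 109 in dcKO. All 6 mutant embryos were below all 3 Ctrl embryos. It was 1.86-fold lower in cKO (log2 fold change -0.89 ± 0.224, edgeR adjusted p = 0.0558) and 1.89-fold lower in dcKO (-0.92 ± 0.225, edgeR adjusted p = 0.0526). DESeq2 gave adjusted p = 0.00665 in cKO and 0.00462 in dcKO, with fold changes under the threshold for a call. Without dcKO replicate 3 the dcKO value was -1.07, and both edgeR (adjusted p = 0.00238) and DESeq2 (1.1e-05) called it lower. DESeq2 alone also called Fgfr1 in dcKO without dcKO replicate 2 or Ctrl replicate 3, and in cKO without Ctrl replicate 3 or cKO replicate 2. DESeq2's adjusted p passed 0.05 in cKO without Ctrl replicate 1 (0.0939), Ctrl replicate 2 (0.0699), cKO replicate 1 (0.0817) or cKO replicate 3 (0.0650), and in dcKO without Ctrl replicate 1 (0.0756) or Ctrl replicate 2 (0.0631). At an adjusted p under 0.05 and any fold DESeq2 counted 2 of 9 members in cKO, beside 16.7% of all genes, and 3 of 9 in dcKO, beside 17.7%. Over 31 alternatives, adjusted p of Fgfr1 lay between 1.7e-09 and 0.215 in cKO and between 1.1e-05 and 0.244 in dcKO. With the GC correction the log2 fold change was -0.68 in cKO and -0.43 in dcKO.

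Fgfr2, another receptor of cortical progenitors, was at 130, 108 and 114 CPM in Ctrl, 112, 85.0 and 115.8 in cKO and 112, 181 and 120 in dcKO. Both mutant groups overlapped Ctrl, the highest value was that of dcKO replicate 2, and the lowest that of cKO replicate 2. Its log2 fold changes were -0.17 ± 0.215 in cKO (edgeR adjusted p = 0.643) and 0.23 ± 0.215 in dcKO (0.495), and without dcKO replicate 2 the latter was -0.02.

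The make-up of the receptor RNA is given next as a description. Summed per kb of exon, the 3 receptors gave 64.6, 59.5 and 49.9 CPM in Ctrl, 27.4, 26.6 and 36.6 in cKO and 26.1, 45.9 and 45.3 in dcKO. Fgfr3 held 50.4, 52.5 and 49.0% of this sum in Ctrl, 29.8, 29.5 and 45.3% in cKO and 34.1, 40.0 and 50.1% in dcKO. The share of Fgfr3 was below every Ctrl embryo in the 3 cKO embryos, but not in dcKO replicate 3. Fgfr2 held 17.6 to 22.1% in Ctrl and 25.6 to 41.5% in the 6 mutant embryos, without overlap. Fgfr1 held 28.9 to 30.1% in Ctrl, 24.1 to 39.6% in cKO and 21.8 to 24.3% in dcKO.

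**Figure D2:**
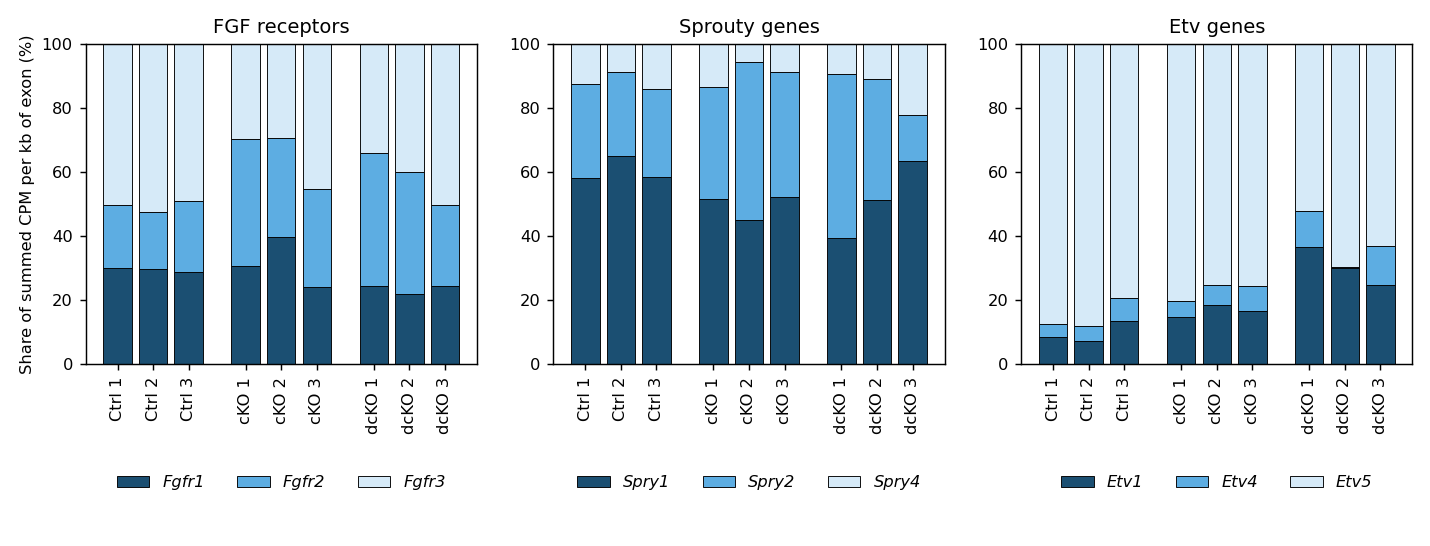
Share of each paralog in the summed CPM per kb of exon of its family (y axis, percent), with 1 stacked bar per embryo, for the receptors, the Sprouty genes and the Etv genes. Fgfr2 takes a larger share in each mutant embryo than in any Ctrl embryo, and Etv5 makes up 79.2 to 88.0% of the Etv sum in Ctrl and 52.1 to 69.7% in dcKO.

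Spry1, an inhibitor that ERK signalling induces and that dampens signals from receptor tyrosine kinases, was at 12.52, 14.5 and 11.4 CPM in Ctrl, 9.92, 10.003 and 8.07 in cKO and 4.53, 6.67 and 6.33 in dcKO. The 3 genotypes did not overlap, with Ctrl highest, cKO between and dcKO lowest. In dcKO Spry1 was 2.19-fold lower than in Ctrl (log2 fold change -1.13 ± 0.268, edgeR adjusted p = 0.0511). DESeq2 called it lower (adjusted p = 0.000436) and kept the call in all 9 fits that left out 1 embryo, while adjusted p over the 31 alternatives ran from 3.5e-05 to 0.392. edgeR called it without dcKO replicate 2 (adjusted p = 0.0152) or replicate 3 (0.00559). The GC correction moved the log2 fold change to -0.45 in dcKO, and likewise to -0.14 in cKO and -0.31 in dcKO against cKO. In cKO the log2 fold change was -0.46 ± 0.264 (edgeR adjusted p = 0.293, DESeq2 0.195), and dcKO differed from cKO by -0.68 ± 0.266 (edgeR adjusted p = 0.889, DESeq2 0.428).

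Spry2 and Spry4, the other Sprouty inhibitors here, had few reads (25 to 213 per embryo) and spread widely. Spry2 was at 4.48, 4.17 and 3.86 CPM in Ctrl, 4.82, 7.92 and 4.30 in cKO and 4.22, 3.55 and 1.03 in dcKO. Only dcKO replicate 3 was far below the rest. Its log2 fold change was 0.45 ± 0.479 in cKO and -0.50 ± 0.481 in dcKO (edgeR adjusted p = 0.579 and 0.508). The dcKO value was -0.10 without dcKO replicate 3 and -0.85 without dcKO replicate 1.

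Spry4 was at 4.44, 3.22 and 4.54 CPM in Ctrl, 4.27, 2.05 and 2.22 in cKO and 1.78, 2.30 and 3.60 in dcKO. Each mutant group overlapped Ctrl by 1 embryo. The log2 fold changes were -0.52 ± 0.410 in cKO and -0.68 ± 0.411 in dcKO (edgeR adjusted p = 0.445 and 0.294, DESeq2 0.432 and 0.247). Without dcKO replicate 3 DESeq2 called Spry4 lower in dcKO (log2 fold change -1.02, adjusted p = 0.0466), while over 31 alternatives the adjusted p in dcKO reached 0.706. Summed per kb of exon, the 3 Sprouty genes gave 7.39, 7.66 and 6.74 CPM in Ctrl, 6.62, 7.67 and 5.30 in cKO and 3.95, 4.48 and 3.43 in dcKO.

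Etv5, an ETS transcription factor downstream of FGF signalling, had the largest difference of the 9 tested members in dcKO. It was at 40.1, 46.1 and 35.9 CPM in Ctrl, 38.9, 51.3 and 18.7 in cKO and 5.86, 16.2 and 8.61 in dcKO. The cKO embryos lay on both sides of Ctrl, and all 3 dcKO embryos were below every Ctrl and cKO embryo. In dcKO Etv5 was 3.98-fold lower than in Ctrl (log2 fold change -1.99 ± 0.431, edgeR adjusted p = 0.0502, the smallest of this comparison, which Ntrk2 also had). DESeq2 called it lower (adjusted p = 0.000312) in the fit of all embryos and in all 9 fits without 1 embryo. Adjusted p over the 31 alternatives ran from 9.1e-09 to 0.206, and the log2 fold change from -2.68 to -1.71. Without dcKO replicate 2, where the targeted genes were least reduced, it was -2.50, and edgeR then called it (adjusted p = 0.00724), as it did without dcKO replicate 3 (0.00767). The GC correction left it at -1.82.

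In cKO the log2 fold change of Etv5 was -0.16 ± 0.415 (edgeR adjusted p = 0.828, DESeq2 0.823), with a positive value of 0.14 without cKO replicate 3. Between the mutants Etv5 was 3.55-fold lower in dcKO (log2 fold change -1.83 ± 0.429). edgeR did not call this difference on all embryos without a block (adjusted p = 0.633) and DESeq2 did (0.00984). edgeR called it without dcKO replicate 3 (adjusted p = 0.0258). Over all genes this fit called 353 higher and 883 lower, against 0 and 2 on all embryos without a block. With the number in the embryo code as a block the log2 fold change was -1.61, with dcKO replicate 3 as the only dcKO embryo that informs it. Over the 31 alternatives, adjusted p for this difference ran from 2.4e-06 to 1.00. DESeq2's call was lost in the fit of the 6 mutant embryos alone (adjusted p = 0.123), and without cKO replicate 1 (0.217), cKO replicate 2 (0.510) or dcKO replicate 1 (0.0597).

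Etv4, the ETS factor closest to Etv5 in function, was covered by 35 to 89 reads in Ctrl and cKO embryos and by 35, 1 and 30 in dcKO. This was 1.43, 1.83 and 2.45 CPM in Ctrl, 1.79, 3.31 and 1.51 in cKO and 0.972, 0.0255 and 1.24 in dcKO. Every dcKO embryo was below every other embryo. With edgeR's filterByExpr, which keeps Etv4, its log2 fold change was 0.15 ± 0.877 in cKO and -1.42 ± 0.907 in dcKO (edgeR adjusted p = 0.940 and 0.352). The library of dcKO replicate 2, with its single read of Etv4, was the deepest of the 9.

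Etv1, the remaining factor of this ETS group, was at 12.8, 12.55 and 20.0 CPM in Ctrl, 23.2, 40.7 and 13.3 in cKO and 13.3, 22.7 and 10.9 in dcKO. The groups overlapped in every comparison. Its log2 fold change was 0.77 ± 0.427 in cKO (edgeR adjusted p = 0.274) and 0.05 ± 0.425 in dcKO (0.946). The cKO value was 0.27 without cKO replicate 2, the highest embryo, and 1.07 without cKO replicate 3. Of the summed Etv1, Etv4 and Etv5 RNA per kb of exon, Etv5 made up 87.3, 88.0 and 79.2% in Ctrl, 80.3, 75.2 and 75.4% in cKO and 52.1, 69.7 and 63.2% in dcKO. Per kb of coding sequence, which gives the long transcripts of Etv1 more weight, the mean share of Etv5 was 68.5% in Ctrl, 54.4% in cKO and 35.1% in dcKO.

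Dusp6, the phosphatase that dephosphorylates ERK in the cytoplasm, was at 15.1, 20.9 and 16.2 CPM in Ctrl, 15.3, 19.7 and 9.27 in cKO and 11.4, 12.4 and 10.6 in dcKO. The dcKO embryos were all below Ctrl and close to each other. Its log2 fold change was -0.24 ± 0.298 in cKO and -0.60 ± 0.299 in dcKO (edgeR adjusted p = 0.638 and 0.206, DESeq2 0.623 and 0.139). The cKO value was -0.0034 without cKO replicate 3 and -0.50 without cKO replicate 2.

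**Figure D3:**
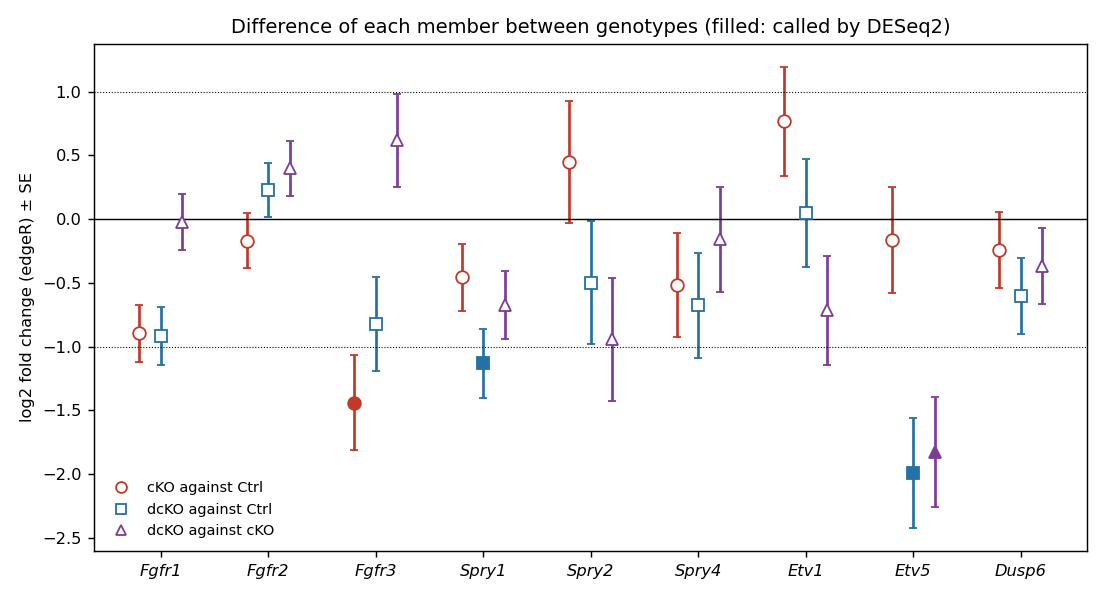
Log2 fold change (y axis, edgeR, ± SE) of the 9 tested members in the 3 comparisons, each fitted on 9 embryos; filled symbols are calls of DESeq2 and dotted lines mark the fold threshold. Filled symbols are Fgfr3 in cKO (-1.44), Spry1 in dcKO (-1.13) and Etv5 in dcKO against Ctrl (-1.99) and against cKO (-1.83).

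Of the 9 tested members, every cKO embryo was below every Ctrl embryo for 3 (Fgfr1, Fgfr3 and Spry1), where 28% of all genes showed this. Every dcKO embryo was below Ctrl for 5 (Fgfr1, Fgfr3, Spry1, Etv5 and Dusp6), where 11.2% did. Every dcKO embryo was below every cKO embryo for 3 (Spry1, Spry2 and Etv5), where 3.63% did. For each of these genes the exact permutation test, two-sided, gave p = 0.1, the lowest value that groups of 3 allow. Both mutants share the 3 Ctrl embryos.

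Within cKO, 6 of the 7 feedback genes had the same order, with replicate 2 highest and replicate 3 lowest for Spry1, Spry2, Etv1, Etv4, Etv5 and Dusp6. Spry4 went against it, with replicate 2 lowest. Of all tested genes 21.6% had that order, and 5 of the 6 members with it were tested. The order was picked after seeing the values, and the members are not independent of each other. For Spry1, replicates 1 and 2 were nearly equal. The embryo codes carry a number, which cKO replicate 2 shared with Ctrl replicate 1 and cKO replicate 3 with Ctrl replicate 2. What this number stands for is not given in the sources used here. Against the Ctrl embryo with the same code number, cKO replicate 2 differed by 0.36 for Etv5, 0.38 for Dusp6 and -2.05 for Fgfr3 on the log2 scale. The like differences of cKO replicate 3 were -1.30, -1.17 and -0.92. dcKO replicate 3 and Ctrl replicate 3 shared another number. There Etv5 differed by -2.06, Spry2 by -1.88, Etv4 by -0.97, Etv1 by -0.87 and Spry1 by -0.85. Dusp6 differed by -0.62, Fgfr1 by -0.39, Spry4 by -0.33, Fgfr3 by -0.11 and Fgfr2 by 0.07.

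The tested protein-coding gene whose log2 CPM followed a member most closely over the 9 embryos was Nfe2l1 for Fgfr1 (Pearson r = 0.99), Brox for Fgfr2 (0.96), Smo for Fgfr3 (0.97) and Sept8 for Spry1 (0.96). For Spry4 it was Dync1h1 (0.94), for Etv1 Mdga2 (0.94), for Etv4 Klhdc8a (0.97), for Etv5 Itpripl1 (0.99) and for Dusp6 Pdxp (0.94). Each was the highest of 12100 genes, and the 9 points include the difference between genotypes, so these values are given as a description.

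The rest of the pathway was examined in 11 lists with 90 tested genes. edgeR called 0 of them in each comparison. DESeq2 called 3 higher and 6 lower in cKO, beside 4.94% and 3.87% of all genes, and 2 higher and 3 lower in dcKO, beside 4.66% and 3.79%. In dcKO against cKO it called 0. The median log2 fold change of the 90 genes was -0.07 in cKO and -0.11 in dcKO, beside the 0.01 and 0.11 of all genes.

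Among ligands, 2 of 18 were tested. Fgf2 was at 1.83, 2.38 and 3.57 CPM in Ctrl, 6.35, 6.14 and 3.996 in cKO and 6.91, 5.34 and 5.80 in dcKO, and DESeq2 called it higher in both mutants (adjusted p = 0.0257 and 0.0119; edgeR 0.0923 and 0.0690). Fgf15 was at 1.01 to 1.98 CPM in Ctrl, 1.64 to 3.43 in cKO and 1.95 to 8.33 in dcKO, with the highest value in dcKO replicate 2. Its log2 fold change in dcKO was 1.42 ± 0.596 (edgeR adjusted p = 0.148). Fgf8, the ligand of the rostral patterning centre, had 0 reads in all 9 embryos, and Fgf17 and Fgf18 had at most 4 and 10. Fgfrl1, a receptor without a kinase domain, was at 36.1, 35.3 and 26.6 CPM in Ctrl, 12.2, 15.0 and 13.5 in cKO and 9.72, 17.0 and 34.9 in dcKO, and DESeq2 called it lower in cKO (adjusted p = 0.0174; edgeR 0.0846). The GC correction moved its log2 fold change in cKO from -1.27 to -0.85.

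Of 8 tested adaptors, 10 other inhibitors of the pathway, 9 other MAP kinase phosphatases and 11 other ETS factors, DESeq2 called none in either mutant. Median log2 fold changes in cKO and dcKO were -0.05 and 0.05 for the adaptors, -0.06 and 0.21 for the inhibitors, -0.23 and -0.21 for the phosphatases and -0.04 and -0.26 for the ETS factors. With the GC correction these medians were -0.20 and -0.06, -0.25 and -0.16, 0.24 and 0.08, and -0.17 and -0.21. The sign thus turned for the phosphatases in both mutants and for the adaptors and inhibitors in dcKO. Of the 12 genes from Ras to ERK, Map2k2, which encodes MEK2, was called lower by DESeq2 in cKO (adjusted p = 0.0198; edgeR 0.112) and in dcKO (0.0391; edgeR 0.136). Map2k2 was at 161, 123 and 63.0 CPM in Ctrl, 26.6, 37.9 and 28.7 in cKO and 11.5, 14.8 and 83.5 in dcKO. Ctrl replicate 3 was thus below dcKO replicate 3. Of 6 tested immediate early genes, Ier2 was called lower by DESeq2 in cKO (log2 fold change -2.07, adjusted p = 0.0133; edgeR 0.0971), and in dcKO it was at -1.41 (DESeq2 adjusted p = 0.0954). The GC correction moved Ier2 to -1.31 in cKO and -0.59 in dcKO. The median of the 6 genes was -0.04 in cKO and -0.51 in dcKO, where 6 of 6 were below 0 and none was called.

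Among genes for heparan sulphate, the co-receptor sugar chain of FGFs, was Sulf1, with the largest log2 fold change of these lists in both mutants. Sulf1, which removes sulphate groups from heparan sulphate outside the cell, was at 3.47, 4.86 and 4.98 CPM in Ctrl, 13.6, 26.7 and 71.9 in cKO and 80.6, 26.3 and 14.4 in dcKO. DESeq2 called Sulf1 higher in cKO (edgeR log2 fold change 3.07 ± 0.728, DESeq2 adjusted p = 0.000214, edgeR 0.0521) and in dcKO (3.19 ± 0.730, DESeq2 0.000135, edgeR 0.0507). The GC correction left it at 2.87 in cKO and 2.89 in dcKO. Gpc1, a glypican that carries these chains, was at 609, 481 and 356 CPM in Ctrl, 125, 144 and 130 in cKO and 47.1, 126 and 295 in dcKO. DESeq2 called Gpc1 lower in cKO (log2 fold change -1.86, adjusted p = 0.00395; edgeR 0.0651) and in dcKO (-1.63, 0.0108; edgeR 0.0801). The other 11 of the 13 tested genes of this list were not called.

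**Figure D4:**
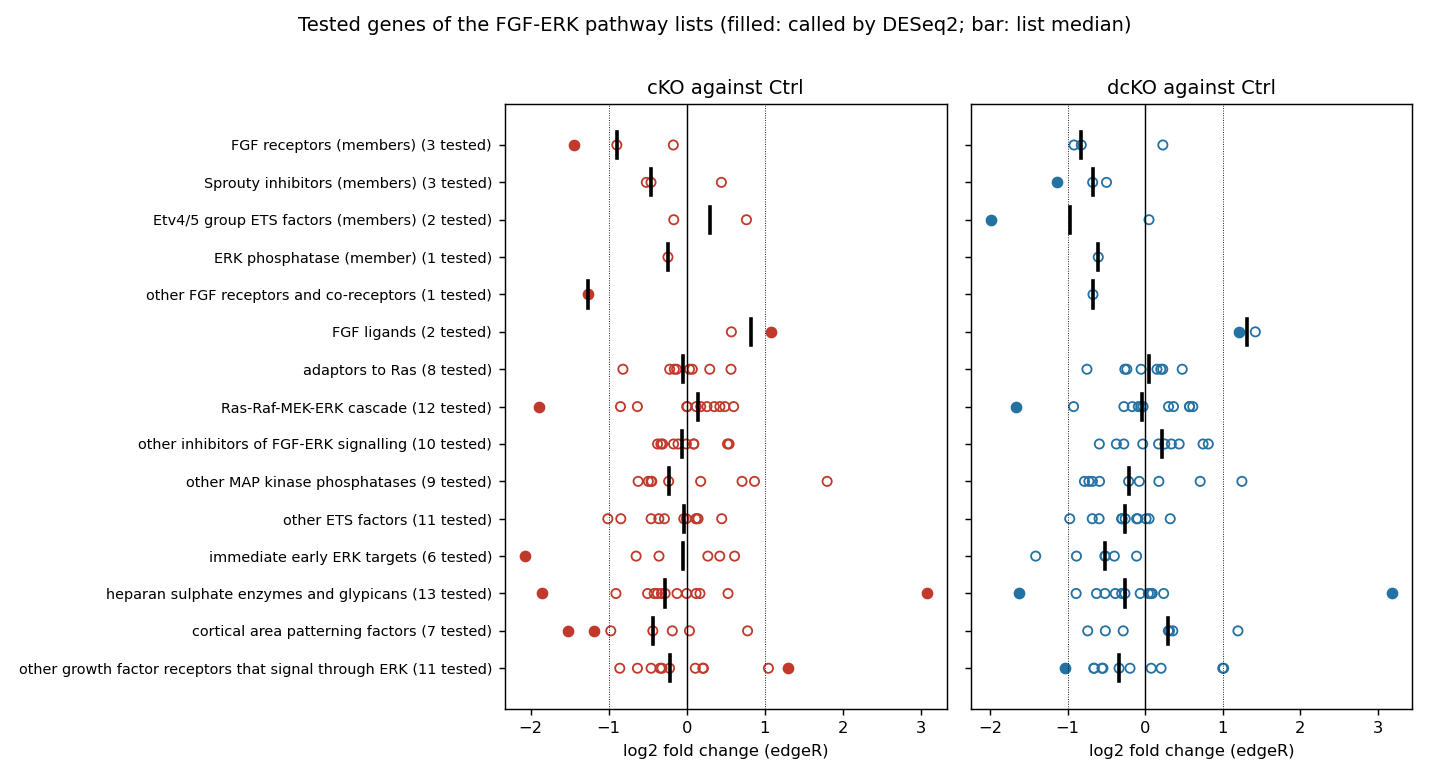
Log2 fold change (x axis, edgeR) in cKO and dcKO of every tested gene of the member and pathway lists, with 1 circle per gene, filled circles for DESeq2 calls and a bar for each list's median. Sulf1 is the point furthest to the right in both panels (3.07 and 3.19), and the medians of the lists with 5 or more tested genes lie between -0.51 and 0.30.

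Of 7 patterning factors, DESeq2 called Sp8, a factor of the rostral cortex, lower in cKO (log2 fold change -1.53, adjusted p = 0.0284; edgeR 0.109) and likewise Lhx2 (-1.19, 0.00164; edgeR 0.0514), and none in dcKO. Of 11 other growth factor receptors, the neurotrophin receptor gene Ntrk2 was called higher in cKO (log2 fold change 1.30, DESeq2 adjusted p = 4.5e-09; edgeR 0.0509). In dcKO Ntrk2 was at 1.01 by edgeR (adjusted p = 0.0502) and 0.98 by DESeq2 (2.9e-05), just under the fold threshold. Pdgfrb, a pericyte gene, was called lower in dcKO (-1.03, DESeq2 adjusted p = 0.00804; edgeR 0.0638).

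Markers of other cell types are given beside these results, and edgeR called none of them. The 6 markers of endothelium and pericytes summed to 221 to 281 CPM in Ctrl, 204 to 283 in cKO and 136 to 150 in dcKO, with a negative log2 fold change in dcKO for 6 of 6 (2 called by DESeq2). In dcKO against cKO 6 of 6 were also below 0, with a median of -0.80 and 1 called lower by DESeq2. The 6 meningeal markers summed to 780 to 858, 452 to 694 and 324 to 518 CPM, and DESeq2 called 3 of 6 lower in dcKO and 0 in cKO. The 6 markers of cortical hem and choroid plexus summed to 69.2 to 91.6, 84.4 to 249 and 106 to 248 CPM, and DESeq2 called 2 of the 4 tested higher in both mutants. Ttr, the choroid plexus transthyretin, had 0 reads in Ctrl and 3.42 to 56.9 CPM in the mutants. The 4 red blood cell markers summed to 5711 to 8235, 7117 to 10995 and 3689 to 5261 CPM, and DESeq2 called 2 of 4 lower in dcKO, both against Ctrl and against cKO. The 4 microglia markers, of which 3 were tested and none was called, summed to 27.0 to 34.1, 28.2 to 58.5 and 10.8 to 24.3 CPM. The 9 radial glia markers summed to 2943 to 3347, 2993 to 3482 and 3159 to 3389 CPM, a sum led by Vim and Nes, and its members differed in direction. In cKO DESeq2 called Hes5, a Notch target, lower (log2 fold change -1.83, adjusted p = 0.00543; edgeR 0.0694), while Nes was at -0.68 (DESeq2 adjusted p = 0.0413) and Vim at 0.45 (0.165). In the lists of neurons, intermediate progenitors, Cajal-Retzius cells and subpallium DESeq2 called none against Ctrl. Cajal-Retzius markers summed to 118.6 to 151 CPM in Ctrl, 117.9 to 174.5 in cKO, with 5 of 5 above 0 in log2 fold change, and 86.2 to 102.5 in dcKO. The lower sum in dcKO was not shared by most of the list, where 2 of 5 were below 0 and the median was 0.19. Neuron markers summed to 1459 to 1906, 1089 to 1544 and 929 to 1847 CPM, with a median log2 fold change of -0.36 in cKO. Intermediate progenitor markers summed to 482.5 to 605.5, 437 to 525 and 439 to 846 CPM, and those of the subpallium to 1.19 to 1.51, 2.26 to 4.54 and 1.78 to 9.12 CPM. The part of these cell types in the values of Spry1, Etv5, Sulf1 and the receptors was not tested.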

How the data were processed

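Cortices of 9 single E12.5 embryos (3 Ctrl, 3 cKO, 3 dcKO) were profiled from stranded poly(A) libraries. The authors trimmed NovaSeq paired-end reads (Cutadapt), used STAR with the mm39 genome, and obtained gene counts from featureCounts. The deposited values are raw counts. Tool versions, and whether strand was used in counting, are not given in the sources used here. Exons of Fgfr1, Fgfr3 and Spry1 overlap those of a gene on the opposite strand, and exons of Fgfr2 those of Ctbp2, so their reads could be shared.

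A gene was tested if each of the 9 embryos had over 10 reads of it (13680 genes). The test was edgeR 4.0.16 in R 4.3.3 (TMM, quasi-likelihood, 1 model of 3 genotypes on 9 embryos, Benjamini-Hochberg adjustment over all genes), beside DESeq2 1.42.0 at its defaults. Exact tests used log2 CPM with a prior count of 0.5. The SE is the size of the log2 fold change divided by the square root of F. Scripts were tested on simulated data.

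The 31 alternatives were other scalings (RLE, upper quartile), other tools (DESeq2, and limma 3.58.1 with voom and quality weights), other filters (none, or filterByExpr), fits of 6 embryos, fits that left out 1 embryo, the replicate number or the number in the embryo code as a block, and a GC correction (loess, span 0.3). DESeq2 on 6 embryos, without each embryo and with the replicate block was added after seeing the data.

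Lengths, GC content and exon overlaps came from GENCODE M21 (GRCm38), with 52081 identifiers matched, and no coordinates were converted to mm39. On GRCm38 Fgfr1 lies at chr8:25513654-25575718, Fgfr3 at chr5:33721674-33737068, Spry1 at chr3:37639947-37644598, Etv5 at chr16:22381309-22439719 and Dusp6 at chr10:99263231-99267489. Members and lists were chosen with earlier results of these data known. Named were all members, the closest gene to each (for Spry2 not reported here), up to 4 DESeq2 calls per pathway list, the ligands Fgf8, Fgf15, Fgf17 and Fgf18, Cnot3, Trp53 and markers of the lists reported. Tables were handled in Python 3.11.15 (pandas 2.3.3, NumPy 2.4.6, SciPy 1.17.1).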

Additional observations from a re-analysis of the deposited data

Results flagged for a closer look

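The difference of Etv5 between the mutants was singled out because a direct test of dcKO against cKO by DESeq2 called it. Etv5 stood at 36.3 ± 16.4 CPM in cKO and 10.2 ± 5.35 in dcKO (SD, n = 3 embryos each), a log2 fold change of -1.83 ± 0.429 (SE), with all 3 dcKO embryos below all 3 cKO embryos. DESeq2 gave adjusted p = 0.00984 and edgeR 0.633, and over 31 alternatives the adjusted p lay between 2.4e-06 and 1.00. The DESeq2 call was lost on the 6 dcKO and cKO embryos alone (adjusted p = 0.123) and without cKO replicate 1 (adjusted p = 0.217), cKO replicate 2 (0.510) or dcKO replicate 1 (0.0597).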

How the results depend on the processing

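The number of tested members called lower, 0 by edgeR in each comparison, depended on the tool and on the embryos. In cKO it was 1 (Fgfr3) with DESeq2, voom, no filter, the 6 embryos compared (edgeR and DESeq2), DESeq2 with the replicate block and the number in the embryo code as a block, and 0 to 1 (edgeR) or 0 to 2 (DESeq2) with 1 embryo left out. In dcKO it was 2 (Spry1 and Etv5) with DESeq2 on 9 or 6 embryos and with the replicate block, 3 without a filter, 4 with voom, 2 (Spry2 and Etv5) with the code-number block, and 0 to 4 (edgeR) or 2 to 5 (DESeq2) with 1 embryo left out. In dcKO against cKO it was 1 (Etv5) with DESeq2 with or without the replicate block, 3 (Spry2, Etv1 and Etv5) with the code-number block, and 0 to 1 with 1 embryo left out, and the code-number block also called 1 member higher (Fgfr3). The code-number block left 1 residual degree of freedom. Only embryos that share a number inform its genotype differences. Its dcKO values thus rest on dcKO replicate 3 against Ctrl replicate 3, and cKO replicate 1 adds nothing to its cKO values. The cause of these changes was not tested. The background moved too: of 13680 genes in dcKO, voom called 1491 higher and 2177 lower, DESeq2 without dcKO replicate 3 called 1123 higher and 2174 lower, and the code-number block called 1229 higher and 404 lower. In cKO edgeR on 6 embryos called 945 higher and 813 lower, the code-number block 957 and 1029, voom 957 and 911 and no filter 386 and 427, fits without 1 embryo called 0 to 751 (edgeR) or 155 to 824 (DESeq2) lower, and in dcKO against cKO that block called 1349 higher and 234 lower. The fit without a filter covered 26872 genes, and in dcKO it called 313 higher and 379 lower. In dcKO DESeq2 called 386 higher and 266 lower on 6 embryos, and 470 and 558 with the replicate block. In cKO the like counts were 930 and 829, and 572 and 451. RLE, upper-quartile factors, filterByExpr and the GC correction left all member counts at 0. Over all genes the GC correction called 407 higher and 240 lower in cKO and 134 and 41 in dcKO. Upper-quartile factors called 331 and 93 in cKO.

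Same-numbered embryos of different genotypes had a mean correlation of -0.17 in their deviations from the group mean (9 pairs, -0.54 to 0.13). No shared deviation of same-numbered embryos was thus seen. The 0.08 of other pairs is no independent reference, since the deviations cancel out within each group. The replicate block in edgeR gave 0 calls among members in each comparison, with or without the GC correction.

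Of the 279 values of the 9 tested members in each comparison, 2 reversed direction in cKO, 18 in dcKO and 12 in dcKO against cKO, with the cause not tested. Etv5 in cKO ran from -0.50 to 0.14 with 1 embryo left out and was positive without cKO replicate 3 (0.14, DESeq2 0.13). Fgfr2 in dcKO ran from -0.019 to 0.36 and was negative without dcKO replicate 2 (-0.019, DESeq2 -0.055). Etv1 in dcKO, at 0.05, became -0.012 with voom, -0.059 without a filter, -0.041 with filterByExpr, -0.0062 with 6 embryos, -0.076 and -0.10 with the replicate block (edgeR and DESeq2), -0.49 with the GC correction, -0.52 with both, and -0.87 with the code-number block. With 1 embryo left out Etv1 ran from -0.32 (without dcKO replicate 2) to 0.31 (without Ctrl replicate 3) in edgeR, and in DESeq2 it was negative without Ctrl replicate 1 (-0.072), Ctrl replicate 2 (-0.087) and dcKO replicate 2 (-0.36). Fgfr1 in dcKO against cKO ran from -0.18 to 0.18, with positive values without cKO replicate 2 (0.082, DESeq2 0.064) and dcKO replicate 1 (0.18, DESeq2 0.16), and became 0.25 with the GC correction, 0.21 with GC and replicate block, and 0.56 with the code-number block. Spry4 in dcKO against cKO ran from -0.48 to 0.26, with positive values without cKO replicate 1 (0.26, DESeq2 0.23) and dcKO replicate 1 (0.046, DESeq2 0.019), and became 0.50 with the code-number block.

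Upper-quartile scaling moved the median of all genes in cKO from 0.01 to 0.12 on the log2 scale. Etv4, Spry2 and Spry4, with down to 1, 25 and 55 reads per embryo, were the members most limited by depth.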
